A study of Mus musculus with 2 samples.

Results

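Mir103-1, Mir103-2, Mir107 and Mir33 are microRNA genes that lie in introns of genes of coenzyme A and cholesterol metabolism, and their levels were measured in mouse calf muscle. They are 4 of the 2202 microRNA genes counted, chosen by name through the GENCODE M21 annotation, in which all 4 were found. The tissue was gastrocnemius, the large calf muscle, of male adult B6CASTF1/J mice aged 18 to 20 months, the first-generation offspring of C57BL/6J and CAST/EiJ parents. MicroRNA-seq gave 2 libraries, biological replicates 1 and 2, which form a single group with no treatment and no second condition named in the labels. The labels give separate biosamples but the same donor entry for both. Any p-value here compares these libraries alone and holds counting error only, and a difference between them may be technical.

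A microRNA gene is transcribed into a hairpin, from which a short mature strand is cut out of the 5′ arm (5p) or the 3′ arm (3p). Bases 2 to 8 of the mature strand, the seed, do most of the pairing with target messages. The Pank genes encode pantothenate kinases, which catalyse the first committed step of coenzyme A synthesis, and Srebf2 encodes the transcription factor SREBP-2, which activates genes of cholesterol synthesis and uptake. miR-103 and miR-107 are known as regulators of insulin sensitivity, and miR-33 is known for repressing the cholesterol exporter gene Abca1. The messages of the host genes were not part of these small RNA counts.

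All 3 Pank hosts carry their microRNA gene in intron 5 of 6 of the principal transcript, on the host's strand. Mir103-1 (ENSMUSG00000065553.1) lies in Pank3 on chromosome 11 from 35782396 to 35782481, plus strand, 688 bases after the preceding exon. Mir103-2 (ENSMUSG00000065563.1) lies in Pank2 on chromosome 2 from 131288052 to 131288137, plus strand, 454 bases after the preceding exon. Mir107 (ENSMUSG00000065594.1) lies in Pank1 on chromosome 19 from 34820687 to 34820773, minus strand, 326 bases after the preceding exon. Mir33 (ENSMUSG00000065465.1) lies in intron 16 of 18 of Srebf2 on chromosome 15 from 82198122 to 82198190, plus strand, 335 bases after the preceding exon. Coordinates are 1-based on mm10, and the RefSeq hairpins (GRCm38.p6) had the same starts and ends for all 4.

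The mature strands are shown first because their likeness sets which reads could be assigned to a gene. They are RefSeq sequences, 5′ to 3′, with the seed in capitals.
miR-103-3p (from Mir103-1 and from Mir103-2): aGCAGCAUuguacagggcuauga
miR-107-3p (from Mir107): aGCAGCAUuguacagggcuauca
miR-103-1-5p (from Mir103-1): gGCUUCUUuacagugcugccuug
miR-103-2-5p (from Mir103-2): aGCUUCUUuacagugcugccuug
miR-107-5p (from Mir107): aGCUUCUUuacaguguugccuug
miR-33-5p (from Mir33): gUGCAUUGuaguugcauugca
miR-33-3p (from Mir33): cAAUGUUUccacagugcaucac
The 3p strands of the Pank loci share the seed GCAGCAU and their 5p strands the seed GCUUCUU, and among the mature strands in the RefSeq table no gene outside these 3 had either seed. The seeds of Mir33, UGCAUUG and AAUGUUU, were each found in no other microRNA gene of that table.

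Counting positions from 1 at the 5′ end of the mature strand, miR-103-3p and miR-107-3p differ by the single substitution G22C, and 22 of 23 bases are identical. The 3p strands of Mir103-1 and Mir103-2 are identical over all 23 bases. On the 5p side, miR-103-2-5p differs from miR-103-1-5p by A1G and from miR-107-5p by C16U. The identity was then followed along the hairpins, which are printed with the 3p strand (Mir33, the 5p strand) in capitals.
Mir103-1: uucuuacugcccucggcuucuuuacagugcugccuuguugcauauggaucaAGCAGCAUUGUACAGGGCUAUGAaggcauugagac
Mir103-2: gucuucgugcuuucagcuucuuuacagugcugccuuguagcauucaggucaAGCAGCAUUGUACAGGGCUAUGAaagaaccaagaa
Mir107: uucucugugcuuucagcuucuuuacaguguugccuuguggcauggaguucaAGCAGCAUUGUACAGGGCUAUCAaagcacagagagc
Mir33: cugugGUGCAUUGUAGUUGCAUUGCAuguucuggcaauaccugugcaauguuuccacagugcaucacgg
The longest exact stretch shared with another microRNA hairpin was 27 bases between Mir103-1 and Mir103-2, 24 bases between Mir107 and both of these, and 11 bases for Mir33.

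Reads that fit several places were kept out of the gene counts, so a read of miR-103-3p that matches both loci equally well could enter neither. Of the 5 windows of 22 bases that start within 2 bases of the start of miR-103-3p, 0 were found at 1 locus alone, in Mir103-1 as in Mir103-2. The same 5 windows around miR-107-3p were divided, with 3 found in Mir107 alone and 2 shared with both Mir103 loci. A miR-107-3p read from the first base was unique among microRNA hairpins from a length of 22 bases on, since the first 21 bases are also those of miR-103-3p. All 10 windows at the starts of the Mir33 strands were unique (5 for each strand). The 5p strands of the Pank loci also separate, with 3 of 5 windows unique for Mir103-1 and for Mir103-2 and 5 of 5 for Mir107. These are exact matches among microRNA hairpins on either strand. The rest of the genome was not searched, and the sources used here do not give the mismatches the aligner allowed.

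**Figure D1:**
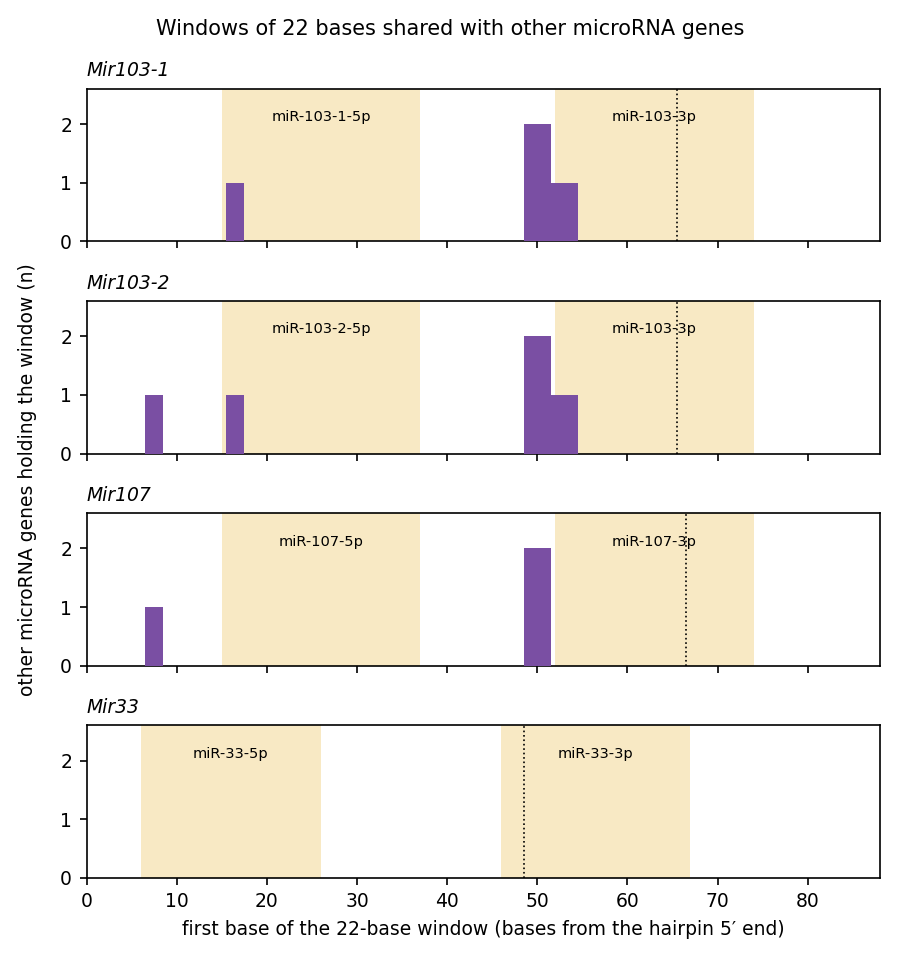
Number of other microRNA genes (vertical axis) whose hairpin holds the 22-base window starting at each base of the hairpin (horizontal axis), for each of the 4 genes. Shaded spans mark the mature strands and the dotted line the last possible window. Shared windows cluster at the start of the 3p strand of the Pank loci, and all 48 windows of Mir33 are unique.

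The 2 libraries held 4442692 and 2156222 counts assigned to microRNA genes, 15.7% and 19.8% of all reads in their tables, while 73.8% and 70.2% were multimapping. Levels are given in CPM, which scales the assigned counts of both libraries to one total, with exact 95% Clopper-Pearson intervals, which cover counting error only, since PCR-amplified reads are not independent molecules. The limit that a count of 0 allows (3 counts) was 0.675 CPM in replicate 1, and in replicate 2 it was 1.39 CPM. Detection means 2 CPM or more in both libraries. All 9 muscle marker microRNA genes, among them Mir206, Mir1a-2 and Mir499, were detected, against 14.7% of all 2202 genes. In bulk tissue, fewer cells of a type and less RNA per cell cannot be told apart.

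Mir107 had by far the most assigned counts of the 4 genes, and the Mir103 loci and Mir33 had between 3 and 33 counts per library. Mir107 had 462 counts in replicate 1, or 104 CPM (94.7 to 114), and 706 counts in replicate 2, or 327 CPM (304 to 352). Its mean was 216 ± 158 CPM (SD, n = 2), and it ranked 131st and 84th of the 2202 genes in replicates 1 and 2. The intervals of the libraries lay far apart, so the mean describes neither library closely.

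Mir103-2 had 33 counts in replicate 1, or 7.43 CPM (5.11 to 10.4), and 16 counts in replicate 2, or 7.42 CPM (4.24 to 12.1). The libraries gave the same level within counting error, 7.42 ± 0.00533 CPM (SD, n = 2), and an SD this small says less than the counting intervals. Mir103-2 ranked 265th in both libraries. Mir103-1 had 3 counts in each library, or 0.675 CPM (0.139 to 1.97) and 1.39 CPM (0.287 to 4.07). These are the counts that the limit for a count of 0 allows, and Mir103-1 was the 1 gene of the 4 not detected at 2 CPM in both libraries. These counts measure only reads that could be placed at 1 locus and not the amount of miR-103 in the muscle.

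Mir33 had 12 counts in replicate 1, or 2.70 CPM (1.40 to 4.72), and 7 counts in replicate 2, or 3.25 CPM (1.31 to 6.69). Its mean was 2.97 ± 0.386 CPM (SD, n = 2), just above the detection level, and the intervals of the libraries overlapped over most of their width. Unlike the Mir103 loci, Mir33 shared no stretch of 22 bases with another microRNA hairpin. Detection at 2 CPM was met by 3 of the 4 genes, against 14.7% of all 2202 genes.

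The opposite strand had 0 counts for all 4 genes in both libraries, and the counts without strand were equal to those on the gene's strand. The 4 genes together took 0.0115% of assigned counts (0.0105 to 0.0125) in replicate 1 and 0.0339% (0.0315 to 0.0365) in replicate 2. Mir107 made up 90.6% (87.7 to 93.0) of that sum in replicate 1 and 96.4% (94.8 to 97.7) in replicate 2, so the sum follows Mir107.

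**Figure D2:**
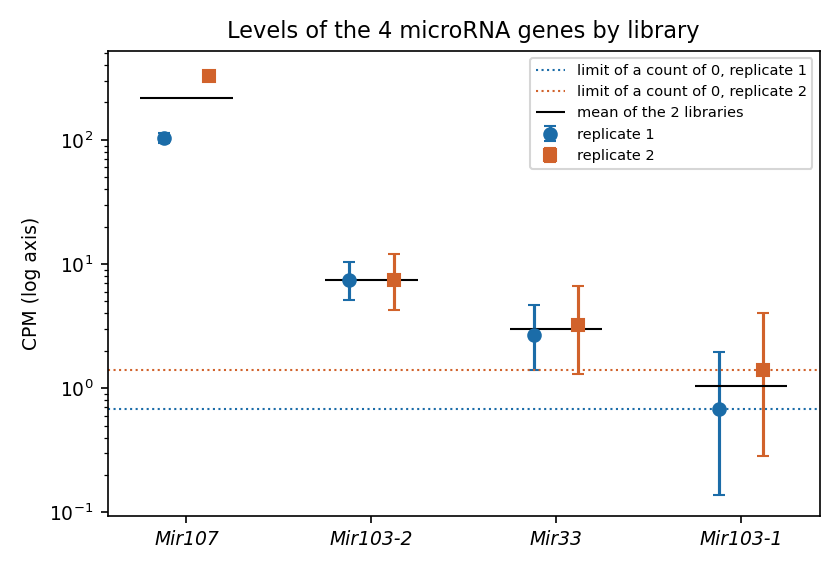
Level of each gene in CPM on a log axis, replicate 1 as circles and replicate 2 as squares, with exact 95% intervals of the counts. Black lines are means of the 2 libraries and dotted lines the level a count of 0 allows. Mir107 sits at 104 and 327 CPM, and the points of Mir103-1 lie on the dotted lines.

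The order Mir107, Mir103-2, Mir33, Mir103-1 was found in both libraries. In assigned counts Mir107 exceeded Mir103-2 by 14.0-fold (9.83 to 20.6) in replicate 1 and by 44.1-fold (27.0 to 77.6) in replicate 2. Ratios between these genes compare reads placed at 1 locus and need not follow the amounts of the mature microRNAs. At the start of miR-103-3p 0 of 5 windows were found at 1 locus alone, against 3 of 5 for miR-107-3p. Mir103-2 exceeded Mir33 by 2.75-fold (1.38 to 5.85) in replicate 1, while in replicate 2 the ratio was 2.29 with an interval of 0.890 to 6.57 that includes equal levels. The ratio of Mir33 to Mir103-1 was 4.00 (1.08 to 22.1) in replicate 1 and 2.33 (0.533 to 14.0) in replicate 2. The assigned counts of the lower 3 genes thus differed beyond counting error in replicate 1, while in replicate 2 the intervals of both neighbouring ratios included equal levels. A small RNA read spans most of a mature strand, so levels were not divided by length. Per 100 bases of annotated gene the order was the same, with 248 ± 182 CPM for Mir107, 8.63 ± 0.00620 for Mir103-2, 4.31 ± 0.559 for Mir33 and 1.20 ± 0.589 for Mir103-1 (SD, n = 2). An exact sign-flip test of one gene against another over 2 libraries cannot go below p = 0.5, two-sided.

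The share of genes detected was also described by whether a mature strand has an identical copy. Of the genes matched to RefSeq by symbol, 94 have a mature strand that is identical at another place, and 39 of these (41.5%) were detected, with a median of 67.5 CPM. Of the 924 whose strands each occur at 1 place, 250 (27.1%) were detected, with a median of 52.4 CPM. Mir103-2 lay under the first of these medians. Of the genes whose strands occur at 1 place, Mir107 lay above the second median and Mir33 far under it.

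Replicate 2 against replicate 1 asks how far these genes differed between libraries with the same labels. Mir107 was 3.34-fold higher in replicate 2. Its log2 ratio was 1.74, with a counting interval (95%) of 1.58 to 1.92, and it alone of the 3 tested genes passed the threshold of 0.05 (adjusted p = 2.34e-92, exact binomial test, two-sided, adjusted by Benjamini-Hochberg over 380 genes with 10 or more counts). For Mir103-2 the log2 ratio was 0.08 (−0.87 to 0.99, adjusted p = 0.916, exact binomial test) and for Mir33 it was 0.27 (−1.23 to 1.82, adjusted p = 0.703, exact binomial test). Mir103-1, with 6 counts in all, was not tested. The ratios use CPM + 1, while the counting intervals use the scaled counts with nothing added, so at low counts the 2 part. With 0.1 CPM added in place of 1 the log2 ratio of Mir33 was 0.35. The counting interval of Mir107 lay above that of Mir103-2 and overlapped that of Mir33, and the differences between the ratios were not tested.

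Passing this threshold was common. Of the 380 genes tested, 61.8% passed it, 30.3% higher in replicate 2 and 31.6% higher in replicate 1, so 1 of 3 is no higher than the background. Among the 86 genes with 500 to 5000 counts, which include Mir107, 89.5% passed, and among the 152 genes with 10 to 99 counts, which include Mir103-2 and Mir33, 32.9% did. The test compares these libraries and holds counting error only. Against the spread between libraries, 18 of the 380 tested genes had a higher log2 ratio than Mir107. In either direction, 46 had a log2 ratio larger in absolute value. The SD of the ratios was 1.13 and their median 0.02. A log2 ratio as high as that of Mir107 lies outside the counting interval of Mir103-2 and inside that of Mir33.

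**Figure D3:**
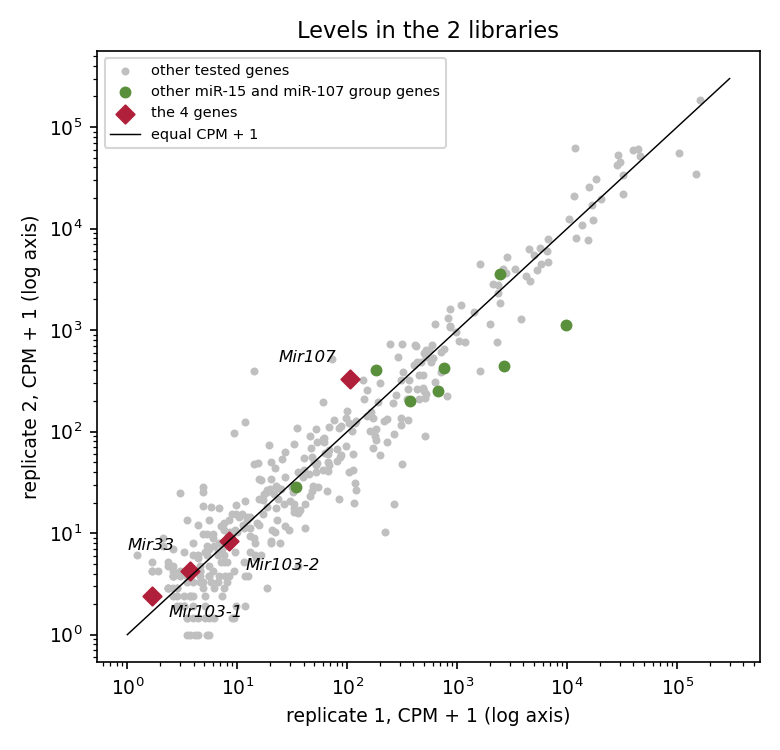
Level of each tested microRNA gene in replicate 1 (horizontal) and replicate 2 (vertical), as CPM + 1 on log axes, with the line of equal values. Diamonds are the 4 genes, with Mir103-1 drawn although it was not tested, and green circles the other tested genes of the miR-15 and miR-107 group. Mir107 lies above the line, and Mir103-2 and Mir33 lie close to it.

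The libraries also differed in marker genes of several cell types, given here for each list. The 9 muscle markers together took 1.64% of assigned counts in replicate 1 and 6.57% in replicate 2, of which 3 were higher in replicate 2, 4 in replicate 1 and 2 fell short of the threshold. Mir206 alone took 1.18% and 6.15%, and the other 8 muscle markers together 0.460% and 0.416%. All marker shares count only reads placed at 1 locus, since multimapping reads are in no gene's count. They do not measure the whole amount of a marker microRNA or the muscle content of a sample. The endothelial marker Mir126a took 10.4% and 5.54%, both erythroid markers together 0.0777% and 0.0109%, and the liver marker Mir122 0.00133% and 0.0396%. The 4 leukocyte markers took 0.229% and 0.363%, with 2 higher in each library, and both smooth muscle and mural markers took 4.88% and 5.68%. No marker was at 0 in either library. The part of these lists in the higher Mir107 level of replicate 2 was not tested.

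By level in both libraries, the genes most like Mir107 were Mir132 (138 and 319 CPM), Mirlet7f-1 (149 and 256 CPM) and Mir203 (141 and 210 CPM). Likeness was the distance in log2(CPM + 1) over the 2 libraries, which was 0.409 for Mir132, 0.621 for Mirlet7f-1 and 0.774 for Mir203. Since they were chosen by their levels in both libraries, a ratio in the direction of Mir107 follows largely from the choice. Nearest to Mir103-2 were Mir298, Mir3074-1 and Mir211 at distances of 0.156, 0.233 and 0.234. Nearest to Mir33 were Mir5122 and Mir7688, both with the very same counts as Mir33, and Mir7224 at 0.0852. At 12 and 7 counts such ties are a matter of whole numbers of reads.

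The 3p strands of the Pank loci belong to the miR-15 and miR-107 group, microRNAs known for sharing AGCAGC at the 5′ end. The shared bases are in capitals, and they start at base 1 in miR-103 and miR-107 and at base 2 in the others, so that the seeds are offset by 1 base.
miR-107-3p: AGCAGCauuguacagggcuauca
miR-15a-5p: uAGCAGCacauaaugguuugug
miR-16-5p (from Mir16-1 and from Mir16-2): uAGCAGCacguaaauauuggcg
miR-195a-5p: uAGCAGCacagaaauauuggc
miR-322-5p: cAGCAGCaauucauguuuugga
miR-503-5p: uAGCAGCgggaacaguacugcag
AGCAGC starting at base 1 or 2, read on the mature strand only, was found in 13 of 1679 mature strands of the RefSeq table (0.774%). Among them were miR-6342, miR-6353 and miR-6419, which were not on the list of the group.

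By mean CPM the group was led by Mir195a, at 9660 CPM in replicate 1 against 1130 CPM in the other library and 5395 ± 6032 CPM on average (SD, n = 2). By mean, Mir322 followed at 2993 ± 778 CPM, Mir15a at 1544 ± 1564 CPM and Mir497 at 587 ± 230 CPM. In replicate 2 Mir322 led the group, at 3543 CPM. Mir107 was the eighth by mean CPM of the 13 genes found from the list of the group. In replicate 2 Mir107, at 327 CPM, was above Mir16-1 (250 CPM) and Mir15b (199 CPM). Mir103-2 and Mir103-1 stood below Mir503 at 30.5 ± 4.37 CPM. Mir195b and Mir497b had 0 counts in both libraries. Mir497b was listed with the group by name, and no strand of it was among the 13 strands with AGCAGC at base 1 or 2.

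Replicate 2 was the higher library for 3 of the 10 tested genes of the group and replicate 1 for 5, and Mir503 and Mir103-2 fell short of the threshold. Over all tested genes 30.3% were higher in replicate 2 and 31.6% in replicate 1. Among the 228 tested genes with 100 or more counts 81.1% passed. The median log2 ratio of the group was −0.46, beside 0.02 over all tested genes. Mir107 had the highest ratio of the group, followed by Mir16-2 at 1.24 and Mir322 at 0.63, and Mir195a (−3.002), Mir15a (−2.50), Mir16-1 (−1.33), Mir15b (−0.81) and Mir497 (−0.73) were higher in replicate 1. The counts of Mir16-1 and Mir16-2, which give the same miR-16-5p from different host transcripts, Dleu2 and Smc4, thus went opposite ways. Genes of the same host went the same way in Dleu2 (Mir15a and Mir16-1) and opposite ways in Smc4 (Mir15b and Mir16-2). A miR-16-5p read that matches both loci equally well could enter neither count. The ratios of Mir16-1 and Mir16-2 thus need not follow the amount of miR-16-5p. Each direction given for the group held with DESeq2's size factors, plain totals and scaling to all reads. With the counts without strand Mir497 had too few counts to be tested.

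A wider list of 31 microRNA genes known for lipid, cholesterol or insulin regulation, which includes the 4 genes, was led by genes far above them. Mir378a, in Ppargc1b, held 172860 ± 18207 CPM, Mir143 48790 ± 3910, Mir26b, in Ctdsp1, 35380 ± 10006 and Mir29a 14538 ± 3485 CPM (SD, n = 2). Of the 31 genes 27 were detected, against 14.7% of all 2202 genes, and 2, Mir758 and Mir301b, had 0 counts in both libraries. Among genes matched to RefSeq by symbol the share was higher, 41.5% with an identical mature strand elsewhere and 27.1% without. The list holds known genes and was chosen with earlier results of these data known. The level of Mir378a rests on the strand, since without strand it had 0 counts in both libraries. By mean CPM, Mir107 stood just above Mir122, the liver microRNA gene, at 205 ± 271 CPM. Mir107 was above Mir122 in replicate 1 (104 against 13.3 CPM) and below it in replicate 2 (327 against 396 CPM). By mean CPM, Mir103-2 and Mir33 stood below Mir370, at 7.50 ± 7.10 CPM. In replicate 1 they were above it, at 7.43 and 2.70 against 2.48 CPM. Mir103-1 was the lowest of the list apart from Mir802, with 1 count in all, and the genes at 0.

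Replicate 2 was the higher library for 13 of the 27 tested genes of this list and replicate 1 for 9, and 5 fell short of the threshold. Over all tested genes these shares were 30.3% and 31.6%. Passing was more common at high counts, which most genes of this list have. Of the 228 tested genes with 100 or more counts, 89 were higher in replicate 2 and 96 in replicate 1, and 81.1% passed. The median log2 ratio of the list was 0.26, beside 0.02 over all tested genes. Mir107 had the fifth highest ratio, after Mir122 (4.89), Mir26a-1 (3.50), Mir128-2 (2.04) and Mir370 (2.04), while Mir144 (−3.69) and Mir148a (−2.45) were the furthest the other way. The list holds 4 other pairs of numbered loci. Mir26a-1 was higher in replicate 2 and Mir26a-2 (−0.58) in replicate 1. Both Mir128-1 (0.35) and Mir128-2 were higher in replicate 2, as were Mir30c-1 (1.07) and Mir30c-2 (0.87), whose intervals overlapped. Mir29b-2 (−0.80) was higher in replicate 1, and Mir29b-1 at −0.02 did not pass. Where both loci of a pair give an identical mature strand, reads that fit both are in neither count. With scaling to all reads in the table the list had 14 genes higher in replicate 2 and 6 in replicate 1, and Mir27a changed from −0.13 to 0.11. With the counts without strand Mir378a was not tested, and 12 of 26 genes were higher in replicate 2.

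**Figure D4:**
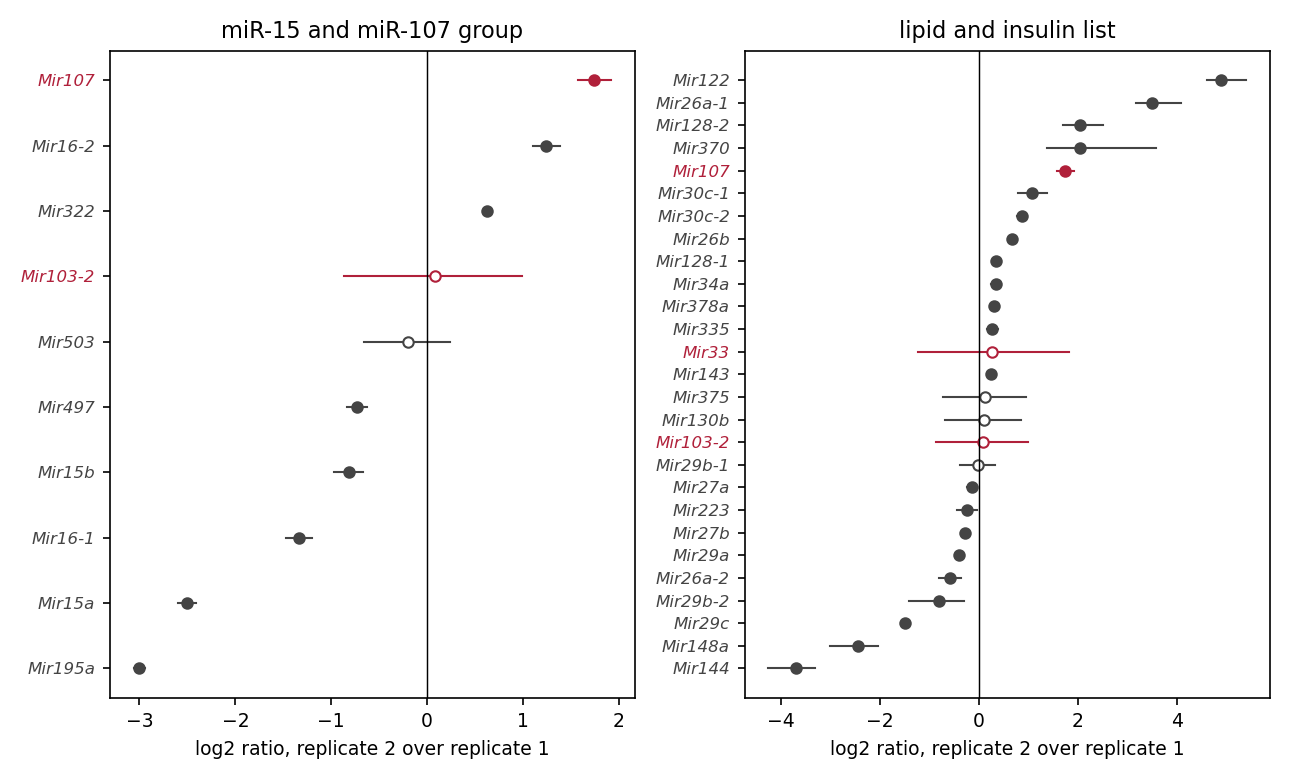
Log2 ratio of replicate 2 over replicate 1 for the tested genes of the miR-15 and miR-107 group (left) and of the lipid and insulin list (right), with exact 95% counting intervals as lines. Ratios use CPM + 1 and intervals the scaled counts with nothing added. Filled points passed the threshold, open points did not, and the Pank and Srebf2 intron genes are in red. Mir107 is the top point on the left, and Mir103-2 and Mir33 are open points whose intervals span 0.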

How the data were processed

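Each library has a deposited table of raw counts for the microRNA genes, made on mm10 with the GENCODE M21 annotation per the readme files beside them. Aligner, trimming and counter: not given in the sources used here. The values of the 3 count columns show them to be unstranded, gene-strand (used here) and opposite-strand counts. Rows of reads in no gene were kept out of totals. Multimapping reads are in no gene's count.

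CPM used plain totals of assigned counts. Log2 ratios used CPM + 1 with edgeR's TMM scaling, and genes with 10 or more counts over both libraries were tested by the exact binomial test (two-sided), adjusted by Benjamini-Hochberg at 0.05; the code was tested on simulated data. Counting intervals of the ratios used the counts with the same scaling and nothing added. With 1 group, edgeR's quasi-likelihood test has no contrast. Named genes were the 4 members, the 3 nearest genes of each detected member, and the leading genes of both lists; further list members were named after their values were seen. Mir497a and Mir142a are not symbols of the annotation, which lists Mir497 and Mir142. The members and lists were chosen with earlier results of these data known. Alternatives covered strand, totals, scaling, count filters, detection levels, pseudocounts and each library alone. Tools were R 4.3.3, edgeR 4.0.16, DESeq2 1.42.0, matplotlib 3.10.9, scipy 1.17.1, pandas 2.3.3, numpy 2.4.6 and Python 3.11.15.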

Additional observations from a re-analysis of the deposited data

How the results depend on the processing

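Mir107 was higher in replicate 2 past the threshold under all 6 alternatives that enter the test, and Mir103-2 and Mir33 passed under none of the 5 in which they were tested. The count filters left the counts and scaling of these genes as they were and changed only the set of genes adjusted over. The counts without strand were the same for these genes (462 and 706 for Mir107) and changed only the scaling and that set. With the pseudocounts, which change the ratio and not the test, included, log2 ratios ran from 1.65 to 1.99 for Mir107, from −0.0013 (plain totals) to 0.30 for Mir103-2 and from 0.13 to 0.46 for Mir33. Scaling to all reads in the table, chosen after seeing the data, moved the median log2 ratio of all tested genes from 0.02 to 0.24 and the share of calls that were higher in replicate 2 from 48.9% to 62.1%; Mir107 then stood at 1.99. With CPM taken over all reads in the table the 4 genes summed to 42.6 CPM, against 227 CPM, since the denominator then holds the multimapping reads. Their sum was 339 CPM without replicate 1 and 115 CPM without replicate 2. With the counts without strand, whose total was smaller, Mir103-2 stood at 10.3 CPM and Mir33 at 4.12 CPM, against 7.42 and 2.97 CPM. Leaving the most abundant gene out of the totals put them at 8.98 and 3.60 CPM. Mir107, Mir103-1 and the sum stayed within the SD of their main levels under both settings. At 10 CPM in both libraries 1 of the 4 genes was detected, in place of 3 at 2 CPM, against 10.4% and 14.7% of all 2202 genes. Mir103-1 and Mir33 had at most 12 counts in a library, which sets the width of their intervals. No paired analysis was possible because the 2 libraries form 1 group with no contrast.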
